A study of Homo sapiens with 4 samples.

Results

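The genes described here were 39 genes of ribosome biogenesis and RNA polymerase I, listed by symbol for what their proteins do; the rule uses no measured value, but the list was drawn up with earlier results of these data known. All 39 were found once on their own strand among 57428 genes with a sense entry, and all 39 had enough counts to be tested, among 21238 tested genes. By role, 6 encode RNA polymerase I or its factors, 15 belong to the machinery that builds the small ribosomal subunit, 8 are proteins of small nucleolar ribonucleoproteins, 8 assemble the large subunit, and NPM1 and NCL are abundant nucleolar phosphoproteins. Nascent RNA was measured by Bru-seq, in which cells incorporate bromouridine and the labelled RNA is captured with an antibody and sequenced. The cells were U2OS, a human osteosarcoma line, and every library came from cells that stably overexpressed GFP-DCP1a under 100 µg/mL G418 in McCoy's medium with 10% serum. The hypertonic group (300 mM sodium, reached with concentrated phosphate-buffered saline) and the isotonic group (150 mM sodium, mock-supplemented with ordinary saline) had 2 libraries each, labelled for 30 min with 2 mM bromouridine and collected after a chase of 0 hours. The time spent in hypertonic medium, and whether replicates were separate cultures, are not given in the sources used here, so p-values reflect only how far these libraries differed from each other, which may be technical.

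Ribosomes are built in the nucleolus, where RNA polymerase I copies the ribosomal DNA into a long precursor RNA. A large particle, the small subunit processome, forms on the precursor as it is made, small nucleolar RNAs guide methylation and pseudouridylation of its bases, and a further set of factors folds and trims the part that becomes the large subunit. The genes of these proteins are themselves transcribed by RNA polymerase II, so the values below concern the synthesis of their messenger RNAs and not that of ribosomal RNA.

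The libraries held 23048409 to 44888307 counts. Across the 21238 tested genes log2 CPM (counts scaled to the TMM effective library size) correlated at 0.972 between the isotonic libraries but at 0.891 between the hypertonic ones, and hypertonic replicate 2 correlated better with both isotonic libraries (0.941 and 0.947) than with hypertonic replicate 1. Reads on the strand opposite to a gene made up 8.6% and 6.03% of gene counts in hypertonic replicates 1 and 2 and 3.17% and 3.36% in the isotonic ones. The hypertonic libraries are therefore given apart. DCP1A itself measured 314 and 199 CPM in hypertonic medium, against 283 and 630 CPM in isotonic medium. Of 9 mesenchymal and osteoblast markers 6 exceeded 0.5 RPKM (the deposited level per gene length), led by VIM, while TWIST1 was at 0; none of the epithelial, blood or neuronal markers reached 0.5 RPKM.

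Relative to the other genes of a library, most of the 39 had lower nascent RNA in hypertonic replicate 1 than in either isotonic library. Hypertonic replicate 2 did not repeat this. CPM are relative values, so a change common to all genes would not show in them. In replicate 1, 35 of 39 (89.7%) lay below both isotonic libraries, against 42.3% of all tested genes and 65.6% of 4828 expressed protein-coding genes (mean RPKM of at least 1), and 2 lay above both, against 42.2% and 22.3%. In replicate 2, 15 of 39 (38.5%) lay below both isotonic libraries and 14 (35.9%) above both, against 36.8% and 44% of all tested genes and 60.4% and 22.6% of the expressed ones. The median difference from the isotonic mean was -1.08 log2 CPM in replicate 1 and 0.02 in replicate 2, where the expressed genes had -0.53 and -0.33. The isotonic libraries themselves differed by a median of 0.30 over the 39 genes (replicate 2 minus replicate 1). Over all tested genes this median was 0.00, and over the expressed ones -0.00. In this bulk measurement a lower level in every cell and a loss of transcription in some of the cells cannot be told apart.

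Fitted over both groups, 32 of the 39 fold changes (hypertonic over isotonic) were negative and 7 positive, with a median of -0.34 log2; with total-count scaling 22 were negative and 17 positive, with a median of -0.05. Of all tested genes 47.6% were negative, with a median of 0.04. Of the expressed protein-coding genes 77.2% were negative, with a median of -0.33, close to the share of 82.1% among the 39. The members were not held to the RPKM limit that defines the expressed genes, a mean of at least 1 over all libraries. Of the 28 members that met it 75% were negative, and of the 11 that did not, 100%. Because this mean includes the hypertonic libraries, a lower hypertonic level itself moves a gene under the limit. UTP15, with an isotonic mean of 1.28 RPKM and hypertonic values of 0.265 and 0.845 RPKM, is such a case. The 2 shares are thus not independent of the fold change. No member passed an adjusted p of 0.05 in edgeR's quasi-likelihood test, where 0% of all genes passed; the smallest adjusted p among members was 0.419. DESeq2 also called 0 members, where it called 0.118% of all genes lower and 3.32% higher, and limma-voom called 0 members and 0% of genes. At an unadjusted p under 0.05 edgeR gave 2 members with lower values, UTP15 and UTP18 (background 2.01% of all tested genes and 6.61% of expressed ones), and 1 with higher values, NOP2 (background 8.89% and 1.41%). Without hypertonic replicate 2 the same test called 20 of 39 members lower and 0 higher, where 10.3% of all tested genes and 29.9% of expressed ones were called lower and 11.1% of all tested genes higher. Without hypertonic replicate 1 it called 0 members and 0 genes, and 20 members were negative and 19 positive.

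**Figure D1:**
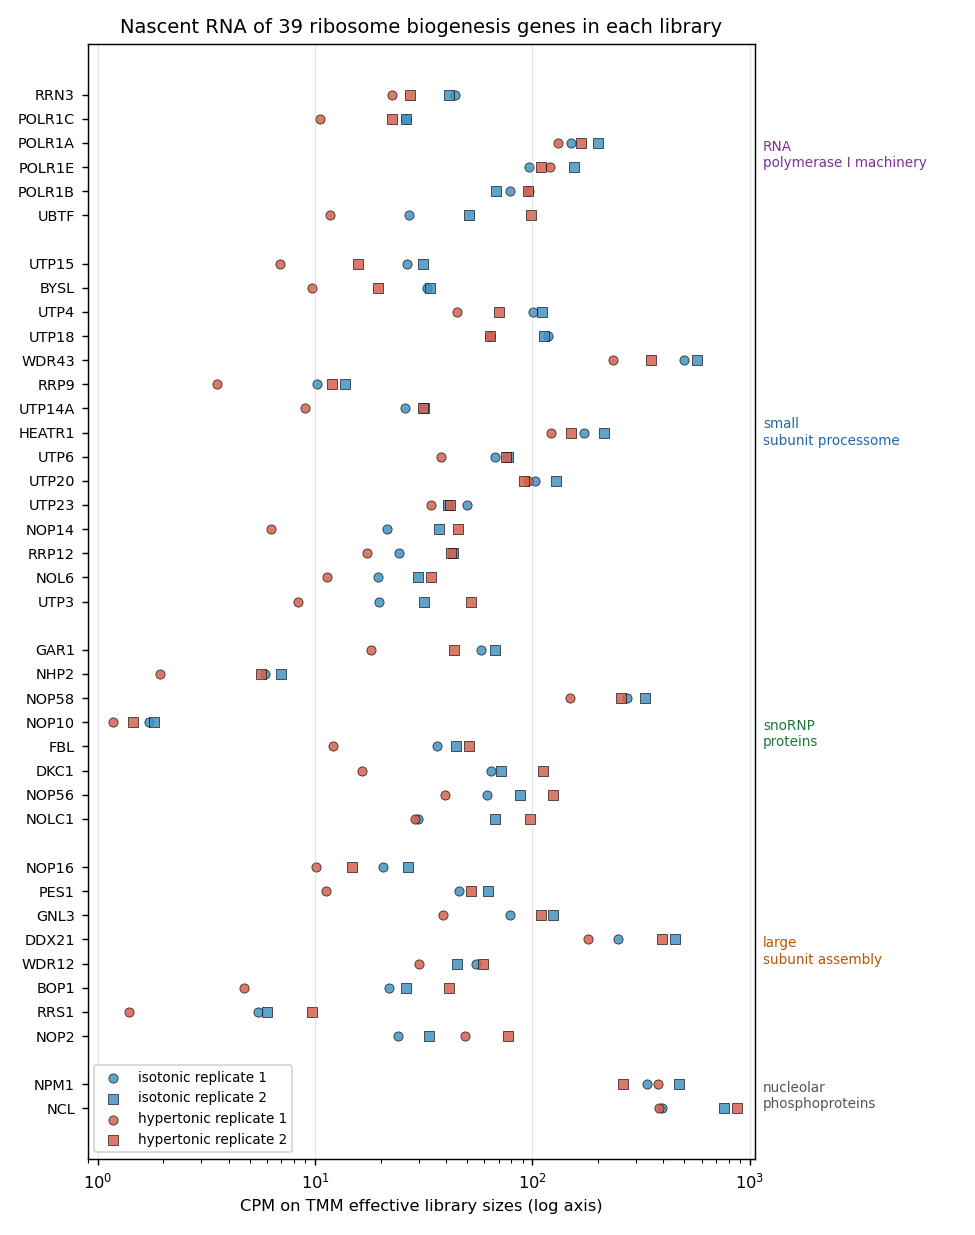
CPM (log axis) of the 39 genes in each library, grouped by role; blue marks are isotonic and red marks hypertonic libraries, circles replicate 1 and squares replicate 2. Red circles lie left of both blue marks for 35 of 39 genes, while red squares lie on either side.

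The hypertonic libraries stood on the same side of both isotonic ones for 16 of the 39 genes. Both were below for 14 members (35.9%), against 17.5% of all tested genes and 38.7% of the expressed ones. These were RRN3 and POLR1C of the polymerase I machinery, UTP15, BYSL, UTP4, UTP18, WDR43, HEATR1 and UTP20 of the small subunit machinery, GAR1, NHP2, NOP10 and NOP58 of the nucleolar ribonucleoproteins, and NOP16 of large subunit assembly. With total-count scaling 8 of the 14 remained (BYSL, GAR1, NOP16, RRN3, UTP15, UTP18, UTP4 and WDR43), against 8.17% of all tested genes and 19.4% of the expressed ones. Both were above for NOP2 and POLR1B alone (5.13%), against 22.5% of all tested genes and 5.32% of the expressed ones. For 12 members (30.8%) replicate 1 was below and replicate 2 above both isotonic libraries, a pattern of 15.9% of all tested genes and 15% of the expressed ones: UBTF, UTP3, NOP14, NOL6, FBL, DKC1, NOP56, NOLC1, WDR12, BOP1, RRS1 and NCL. These lists were read from the values and are descriptions.

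**Figure D2:**
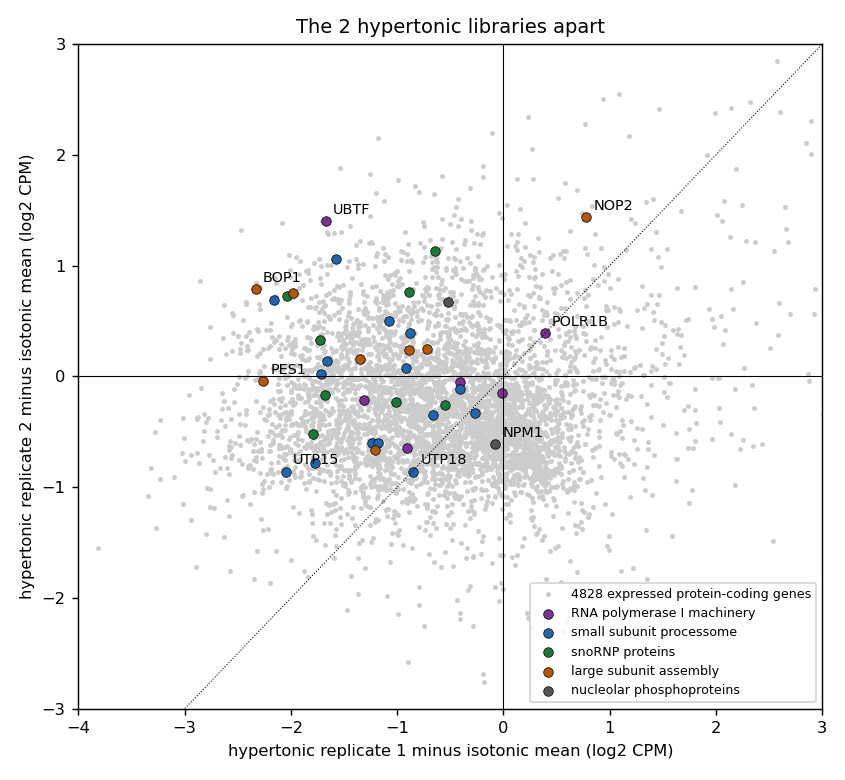
Difference from the isotonic mean (log2 CPM) in hypertonic replicate 1 (horizontal) and replicate 2 (vertical) for the members, coloured by role, over 4828 expressed protein-coding genes in grey, 19 of which lie outside the axes. The members spread along the left side, from UTP15 (-2.05 and -0.86) at the lower left to UBTF (-1.67 and 1.40) at the upper left, and NOP2 and POLR1B stand alone at the upper right.

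Promoter windows from 250 bases before to 50 bases after the start came from a set based on RefSeq (GRCh38.p14). The set held 32 of the 39 genes. RRP12, POLR1E, UTP23, NOLC1, BOP1, RRS1 and NOP58 had no entry in the set used here. The E-box CACGTG, which is its own reverse complement and is bound by MYC with MAX among other factors, was in 16 of the 32 windows (50%), against 7.26% of 35116 promoters of that length and 13.2% of those of the expressed genes. Searched on both strands, CCGGAAG (a core of ETS-family sites) was in 37.5% of the members' windows, 10.3% of all and 26.7% of expressed promoters. GGGCGG (a GC box) was in 75%, 45% and 77.1%, CCAAT in 43.8%, 34.6% and 44.5%, and TATAAA in 3.12%, 11.5% and 8.72%. No motif of the 5 is contained in another, and a match is a description of the letters only. The E-box windows below are a selection, made after the values were seen, from members whose hypertonic libraries were both below the isotonic ones (UTP18, UTP4, UTP20, BYSL and WDR43; GAR1 and NOP10 also have the E-box and are not shown), both above (NOP2), or far apart (PES1, FBL), each 5′ to 3′ on the gene's strand with the E-box in capitals.
UTP18, before the start, chr17:51260417-51260502, plus strand: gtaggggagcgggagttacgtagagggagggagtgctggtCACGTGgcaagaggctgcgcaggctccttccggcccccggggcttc
UTP18, after the start, chr17:51260538-51260567, plus strand: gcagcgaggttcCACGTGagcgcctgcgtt
UTP4, before the start, chr16:69132593-69132648, plus strand: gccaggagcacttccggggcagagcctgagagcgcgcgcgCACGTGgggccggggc
UTP20, before the start, chr12:101280055-101280104, plus strand: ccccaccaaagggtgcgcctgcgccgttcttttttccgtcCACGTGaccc
BYSL, after the start, chr6:41921515-41921544, plus strand: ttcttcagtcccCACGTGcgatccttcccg
WDR43, after the start, chr2:28894658-28894687, plus strand: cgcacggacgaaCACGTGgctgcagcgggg
NOP2, after the start, chr12:6568242-6568268, minus strand: aggtccggattgCACGTGgagggccgc
PES1, after the start, chr22:30591880-30591909, minus strand: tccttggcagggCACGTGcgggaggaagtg
FBL, after the start, chr19:39846356-39846385, minus strand: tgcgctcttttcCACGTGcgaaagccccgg

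Of the 16 members with the E-box, 15 had a negative fold change, with a median of -0.48 log2, and their median differences from the isotonic mean were -1.30 in hypertonic replicate 1 and -0.01 in replicate 2. Of the 16 matched members without it, 11 were negative, with a median of -0.28 and median differences of -0.91 and 0.02. Of the 7 members with no promoter entry, 6 were negative, with a median of -0.12 and median differences of -0.88 and 0.39. NOP2, with the largest positive fold change of the 39, was the 1 member with the E-box that was not negative. With total-count scaling DDX21 (0.03), NOL6 (0.21) and NOP14 (0.20) of the members with the E-box turned positive. Of the matched members without it, DKC1 (0.28), POLR1A (0.02) and WDR12 (0.11) did. These counts and medians are given without a test.

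Among the members, the RNA polymerase I machinery had the smallest shift in replicate 1 of the 4 larger roles. Its medians were -0.66 in replicate 1 and -0.10 in replicate 2. Of its 6 genes, 4 had a negative fold change and 0 passed the test. This small shift was not shared by 9 further genes of the machinery, from the list of other pathway genes given below. Their medians were -1.41 in replicate 1 and -0.07 in replicate 2. RRN3 (ENSG00000085721, chr16:15060022-15094317, minus strand), the initiation factor that brings the polymerase to the ribosomal DNA promoter, measured 22.7 and 27.2 CPM in the hypertonic libraries and 43.9 and 41.5 CPM in the isotonic ones. The groups did not overlap, and the fold change was -0.77 log2 (SE 0.46, adjusted p = 0.627 by edgeR). RRN3 has near-identical pseudogene copies, so its count is uncertain where reads could be split between them. POLR1C (ENSG00000171453, chr6:43517022-43529585, plus strand), a subunit shared by RNA polymerases I and III, measured 10.5 and 22.7 CPM against 26.3 and 26.2 CPM. Both hypertonic libraries were again below, replicate 1 by much more than replicate 2, at -0.66 log2 (SE 0.56, adjusted p = 0.822 by edgeR). POLR1E (ENSG00000137054, chr9:37485935-37503697, plus strand) is a subunit of the polymerase's initiation module. It had the highest isotonic level per length of the 6 members in the role, at 4.43 and 6.52 RPKM. Its 121 and 110 CPM lay between the isotonic 96.2 and 155 CPM, and its fold change of -0.12 log2 (SE 0.41, adjusted p = 0.993 by edgeR) turned positive with total-count (0.11) and upper-quartile (0.07) scaling.

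The 3 other polymerase I genes among the members, described here after their values were seen, differed in the order of their libraries. POLR1A, the largest catalytic subunit, measured 131 and 168 CPM against 151 and 200 CPM, overlapping groups. POLR1B, the second catalytic subunit, measured 96.2 and 95.8 CPM against 78.8 and 68.0 CPM, with both hypertonic libraries above, at 0.39 log2 (SE 0.38, adjusted p = 0.875 by edgeR). UBTF (ENSG00000108312, chr17:44205033-44221626, minus strand), the HMG-box protein that binds along active ribosomal DNA, measured 11.7 CPM in hypertonic replicate 1 and 98.2 CPM in replicate 2, on either side of 27.1 and 51.2 CPM in the isotonic libraries. Its hypertonic libraries differed by 3.07 log2, second among the members to BOP1, and its fitted 0.49 log2 (SE 0.82), an average of values on opposite sides, turned to -0.13 with a replicate block.

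The small subunit machinery was the role with the most members on 1 side: all 15 were below both isotonic libraries in hypertonic replicate 1, 7 of them in replicate 2 as well, and 14 of 15 fold changes were negative, with a median of -0.50 log2. The medians were -1.18 in replicate 1 and -0.11 in replicate 2, and 0 of 15 passed the test. UTP15 (ENSG00000164338, chr5:73565741-73583377, plus strand), a WD-repeat protein of the UTPA complex that binds the start of the precursor RNA, measured 6.88 and 15.8 CPM in hypertonic medium, against 26.6 and 31.2 CPM in isotonic medium. These means of 11.4 ± 6.33 and 28.9 ± 3.26 CPM (SD, n = 2 each) gave the most negative fold change of the 39 genes, -1.34 log2 (SE 0.58, adjusted p = 0.447 by edgeR), which ranged from -2.07 without hypertonic replicate 2 to -0.90 without hypertonic replicate 1. UTP18 (ENSG00000011260, chr17:51260528-51297933, plus strand), of the UTPB complex, measured 64.0 and 63.6 CPM against 118 and 113 CPM. The replicates of each group lay close together, and the fold change was -0.86 log2 (SE 0.38, adjusted p = 0.455 by edgeR). It moved only between -0.93 and -0.86 when any library was left out. With total-count scaling it was -0.64 and with upper-quartile scaling -0.67 log2.

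Other UTPA proteins had the same order of libraries as UTP15. UTP4 measured 44.8 and 70.0 CPM against 101 and 111 CPM, and WDR43 measured 234 and 351 CPM against 496 and 570 CPM. HEATR1, the largest of them, measured 122 and 151 CPM against 173 and 214 CPM. In all 3 the hypertonic libraries were both below and replicate 1 was the lower, at fitted -0.89, -0.86 and -0.50 log2. BYSL, a late factor of the small subunit precursor, measured 9.67 and 19.4 CPM against 32.7 and 33.7 CPM, a fold change of -1.19 log2 (SE 0.54, adjusted p = 0.477 by edgeR). UTP20, a long helical-repeat scaffold protein and the longest member gene at 107 kb, measured 95.3 and 91.6 CPM against 103 and 128 CPM. Its hypertonic libraries lay just below the isotonic range, with a difference of 0.06 log2 between them.

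UTP3 (ENSG00000132467, chr4:70688479-70690551, plus strand), a processome factor also called SAS10, had the highest isotonic level of the role per length, at 7.76 and 11.4 RPKM, and was its single positive member. It measured 8.32 CPM in hypertonic replicate 1 and 52.2 CPM in replicate 2, around isotonic values of 19.7 and 31.6 CPM. The fitted 0.24 log2 (SE 0.77, adjusted p = 0.993 by edgeR) turned to -0.25 with a replicate block and -0.18 with limma-voom. NOP14, a processome scaffold protein, showed the same split, at 6.25 and 45.5 CPM against 21.5 and 37.0 CPM. The remaining 6, RRP9, UTP14A, UTP6, UTP23, RRP12 and NOL6, had fold changes between -0.62 (RRP9) and -0.11 log2 (NOL6), and that of NOL6 was 0.21 and that of RRP12 was 0.15 with total-count scaling. UTP14A has a retrocopy, which makes its exonic reads uncertain.

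**Figure D3:**
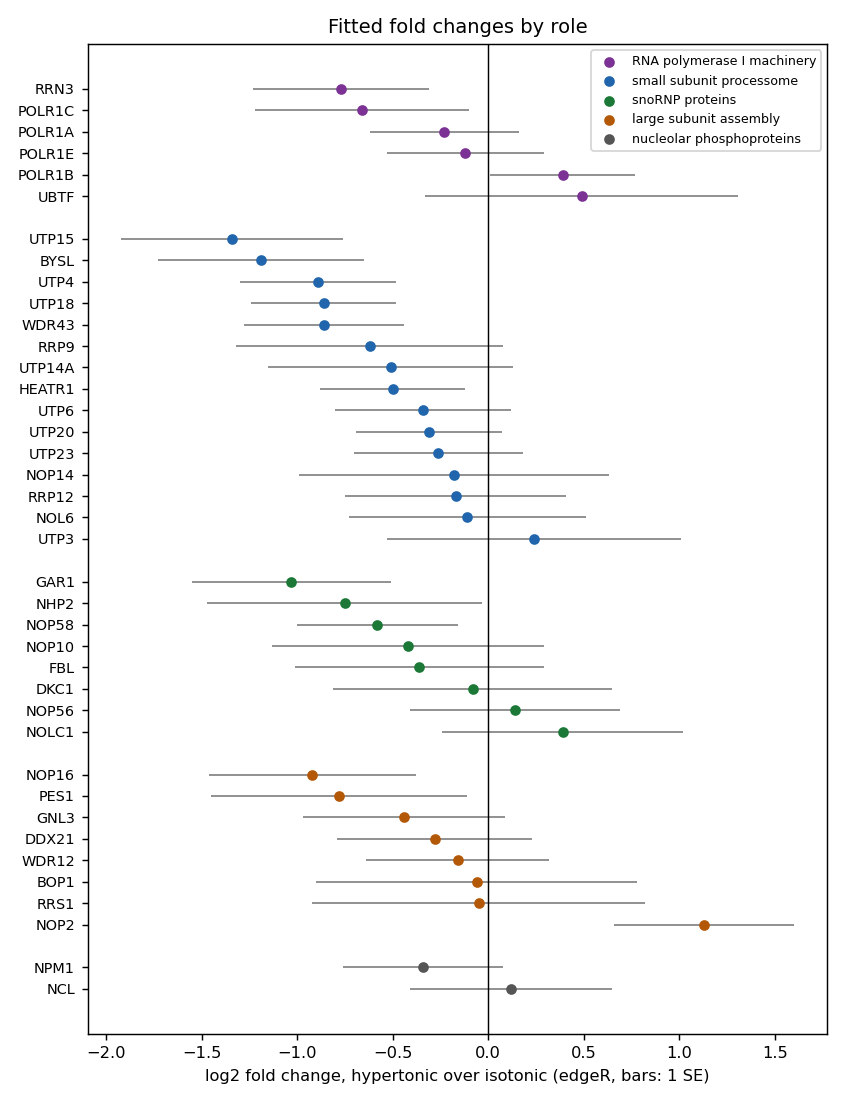
Fitted log2 fold change (hypertonic over isotonic) of each member by role; bars are 1 standard error from edgeR with 2 libraries per group. Values run from -1.34 (UTP15) to 1.13 (NOP2), and none passed the adjusted threshold.

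All 8 nucleolar ribonucleoprotein genes were below both isotonic libraries in hypertonic replicate 1, with a median of -1.35, while replicate 2 was below for 4 and above for 4, with a median of 0.08. The fold change was negative for 6 of 8, and 0 passed the test. The division followed neither class of particle. Among proteins of the H/ACA particles, which carry out pseudouridylation, GAR1 measured 18.1 and 43.6 CPM against 58.2 and 67.3 CPM, both below, at -1.03 log2 (SE 0.52, adjusted p = 0.54 by edgeR). NHP2 (1.94 and 5.66 against 5.86 and 6.97 CPM) and NOP10 (1.18 and 1.45 against 1.72 and 1.81 CPM) were also below in both, at low counts. DKC1, the pseudouridine synthase of the same particle, measured 16.4 CPM in replicate 1 and 112 CPM in replicate 2 around 64.3 and 71.4 CPM.

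Among proteins of the C/D particles, which carry out methylation, NOP58 measured 149 and 255 CPM against 272 and 329 CPM, both below, at -0.58 log2 (SE 0.42, adjusted p = 0.75 by edgeR). Its partner NOP56 had the highest isotonic level of the role per length, at 8.81 and 11.3 RPKM, and measured 39.7 and 124 CPM around 61.9 and 87.3 CPM. The hypertonic libraries of NOP56 stood on opposite sides, and its fitted 0.14 log2 (SE 0.55, adjusted p = 0.993 by edgeR) turned to -0.07 with a replicate block and -0.04 with limma-voom. The methyltransferase FBL measured 12.1 and 50.9 CPM around 36.4 and 44.7 CPM, the same split. NOLC1, a chaperone of these particles, measured 28.8 and 97.8 CPM, and its isotonic libraries were themselves far apart, at 29.7 and 67.2 CPM.

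All 8 large subunit assembly genes were lower in hypertonic replicate 1 than in replicate 2, with medians of -1.28 and 0.25, and 7 of 8 fold changes were negative, with 0 past the test. NOP2 (ENSG00000111641, chr12:6556863-6568691, minus strand), a methyltransferase of the large subunit's RNA, was the exception in direction. It measured 49.0 and 77.4 CPM in hypertonic medium, against 24.1 and 33.5 CPM in isotonic medium, groups that did not overlap, at 1.13 log2 (SE 0.47, adjusted p = 0.419 by edgeR). NOP16 (ENSG00000048162, chr5:176383938-176388975, minus strand), a protein of early large subunit precursors, measured 10.1 and 14.8 CPM against 20.5 and 26.7 CPM, and was the 1 member of the role below in both, at -0.92 log2 (SE 0.54, adjusted p = 0.619 by edgeR). GNL3, the GTPase nucleostemin, had the highest isotonic level of the role per length, at 7.91 and 11.3 RPKM, and measured 38.8 and 110 CPM against 79.2 and 124 CPM, overlapping groups, at -0.44 log2 (SE 0.53, adjusted p = 0.918 by edgeR).

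PES1, BOP1 and WDR12 form 1 complex, PeBoW, and their genes did not share a pattern in replicate 2. PES1 measured 11.2 and 52.0 CPM against 46.0 and 62.5 CPM. BOP1 measured 4.69 and 41.5 CPM against 21.8 and 26.3 CPM, and the 3.13 log2 between its hypertonic libraries was the widest gap of the 39 genes. WDR12 measured 30.2 and 59.3 CPM against 55.0 and 44.9 CPM. All 3 were below both isotonic libraries in replicate 1, while in replicate 2 BOP1 and WDR12 were above both and PES1 lay between them. DDX21, an RNA helicase, measured 180 and 394 CPM against 247 and 450 CPM, and RRS1, which helps to add the 5S particle, measured 1.39 and 9.67 CPM around 5.44 and 6.04 CPM.

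NCL (ENSG00000115053, chr2:231453531-231464594, minus strand), nucleolin, had the highest isotonic level of all members per length, at 29.8 and 52.9 RPKM, and NPM1 (ENSG00000181163, chr5:171387116-171411137, plus strand), nucleophosmin, came next at 11.5 and 14.6 RPKM. NCL measured 383 and 874 CPM in hypertonic medium, against 393 and 764 CPM in isotonic medium, so that the gap within each group exceeded that between the groups (0.12 log2, SE 0.53, adjusted p = 0.994 by edgeR); without hypertonic replicate 2 the value was -0.60. NPM1 measured 378 and 261 CPM against 338 and 470 CPM and, unlike 34 of the 39 members, was higher in replicate 1 than in replicate 2, at -0.34 log2 (SE 0.42, adjusted p = 0.922 by edgeR). NPM1 has many processed pseudogenes, so its exonic reads are uncertain. The lowest isotonic levels per length were those of UTP23 (0.492 and 0.367 RPKM) and RRP12 (0.287 and 0.464 RPKM). The 11 members with a mean RPKM under 1 over all libraries had a median fold change of -0.42 and the 28 others -0.31 log2. This mean includes the hypertonic libraries, so the split depends on the fold change and is not one by isotonic level.

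Other genes of the pathway were also mostly lower in hypertonic replicate 1 than in replicate 2, except the longest. Of 120 listed, 119 were tested and PWP2 had 0 counts. Among them 103 fold changes were negative and 16 positive, with a median of -0.47 log2, and 0 passed the test; with total-count scaling 80 were negative. The median differences were -1.36 in replicate 1 and -0.04 in replicate 2, and 99 of 119 (83.2%) were lower in replicate 1, against 34 of 39 members (87.2%), 53.2% of all tested genes and 59.3% of expressed ones. Of the 12 over 80 kb, 3 were lower in replicate 1, with medians of 0.04 and -0.38; the difference between the lists was not tested. At an unadjusted p under 0.05, 9 were lower and 1 higher. TAF1D, a subunit of the polymerase I promoter factor SL1, measured 95.2 and 74.2 CPM against 191 and 204 CPM, at -1.22 log2 (SE 0.38, adjusted p = 0.293 by edgeR), the smallest p of the list. RPF1, a large subunit factor (18.2 and 30.3 against 69.6 and 55.2 CPM), and C1D, an exosome cofactor (18.0 and 39.3 against 74.9 and 67.4 CPM), followed, also below in both libraries. NAT10, the RNA acetyltransferase, measured 207 and 125 CPM against 64.4 and 86.6 CPM, above in both, at 1.13 log2 (SE 0.43, adjusted p = 0.372 by edgeR). The next positive genes by p, EXOSC6 (0.47 log2) and PIH1D1 (0.58 log2), had adjusted p of 0.922 and 0.934 by edgeR.

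Lists of other machinery showed that the gap between the hypertonic libraries was not the same everywhere. The 12 RNA polymerase II subunit genes had medians of -0.94 in replicate 1 and 0.14 in replicate 2, and the 11 of RNA polymerase III had -0.62 and -0.06. The 79 cytosolic ribosomal protein genes, by contrast, had -0.89 and -0.58, and 44 of them (55.7%) were below in both hypertonic libraries, against 14 of the 39 members (35.9%). The difference between these lists was not tested.

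The split between the hypertonic libraries ran with gene length. In hypertonic replicate 1 the members' median difference from the isotonic mean was -1.58 for 9 genes of up to 10 kb, -1.31 for 11 of 10 to 20 kb, -0.96 for 12 of 20 to 40 kb, -0.90 for 4 of 40 to 80 kb and -0.41 for 3 longer ones. The corresponding values in replicate 2 were 0.02, 0.50, 0.05, -0.14 and -0.11. Expressed protein-coding genes had -0.88, -1.16, -0.92, -0.44 and 0.06 in replicate 1, so the members lay below them in every class. In replicate 2 the expressed genes went the opposite way, with -0.04, -0.10, -0.27, -0.34 and -0.56 from the shortest class to the longest. There the members lay above them in every class. The classes of the members hold 3 to 12 genes, too few to read an order from neighbouring ones.

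**Figure D4:**
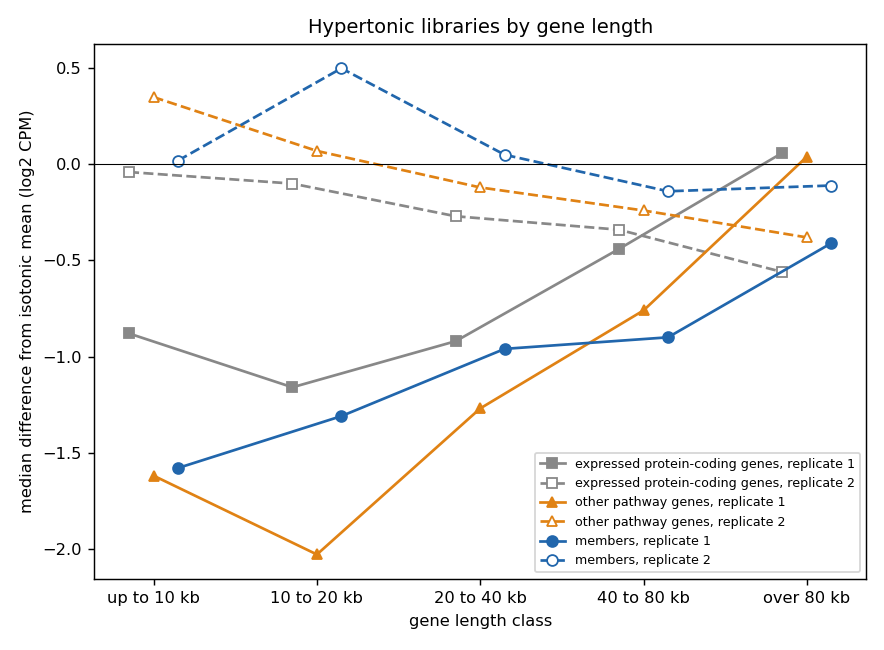
Median difference from the isotonic mean (log2 CPM) by gene length class in hypertonic replicate 1 (filled marks) and replicate 2 (open marks) for the members, the other pathway genes and the expressed protein-coding genes. In replicate 1 the members go from -1.58 in the shortest class to -0.41 in the longest.

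Across genes, which share the same libraries and are not replicates, the difference between the hypertonic libraries (replicate 1 minus replicate 2) had a Spearman correlation with gene length of 0.42 over the 39 members and 0.46 over the 4828 expressed genes. With the GC content of the longest transcript it was -0.49 and -0.34, and with isotonic RPKM 0.05 and -0.01. The members were shorter than expressed genes, with a median of 17.8 kb (1.47 to 107 kb) against 29.3 kb, and richer in GC, with a median of 47.8% against 44.9%. The part of length and GC in the gap was not tested. The 6 members that host snoRNA genes in their entries (WDR43, NOP58, NCL, NOP56, GNL3 and DKC1, with 22 such entries) were all lower in replicate 1 than in replicate 2, with medians of -1.10 and 0.42. This order was not particular to them, since 34 of the 39 members had it, with medians of -1.08 and 0.02 over all 39.

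Both members above the isotonic range in both hypertonic libraries lay close behind another transcribed gene on the same strand. POLR1B starts 175 bp after the end of TTL, and NOP2 starts 1391 bp after the end of CHD4. Only 2 other members start within 5 kb of an upstream gene with at least 0.5 isotonic RPKM, NOLC1 behind PPRC1 (1844 bp) and NOP16 behind CLTB (3479 bp). The limits of distance and level were chosen after the values were seen. CHD4, a chromatin remodeller with 2.9 times the isotonic RPKM of NOP2, measured 326 and 565 CPM against 218 and 308 CPM, above in both as NOP2 was. TTL, the tubulin tyrosine ligase, measured 75.8 and 114 CPM against 77.0 and 96.8 CPM, overlapping where POLR1B did not. CLTB, a clathrin light chain, measured 5.7 and 15.4 CPM against 16.1 and 16.4 CPM, below in both as NOP16 was. PPRC1, a transcriptional coactivator, measured 23 and 61.3 CPM against 55.3 and 73.8 CPM.

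**Figure D5:**
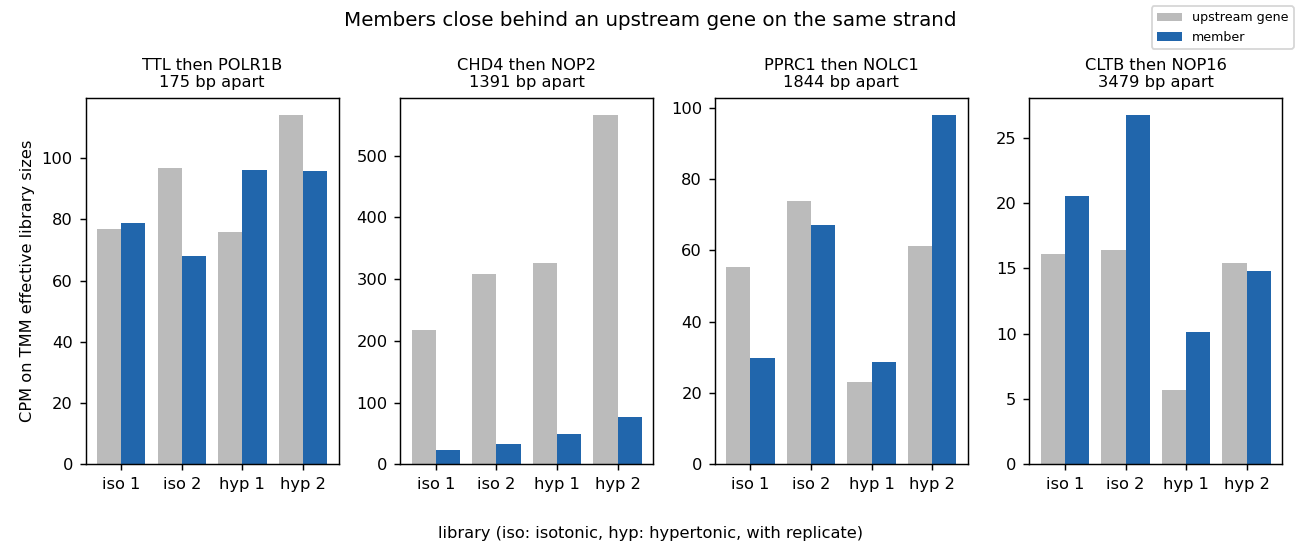
CPM in each library of the 4 members that start within 5 kb of an upstream gene on the same strand (blue) and of that upstream gene (grey), with a separate axis from 0 in each panel. NOP2 and POLR1B are above both isotonic libraries in both hypertonic ones, and NOP16 is below in both.

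Of members within 5 kb of such a gene 2 of 4 were above in both hypertonic libraries, and of the 35 others 0 were. Among expressed protein-coding genes 23% of 439 with an upstream neighbour that close were above in both, against 3.55% of the 4389 others. That set is defined by the mean RPKM over all libraries, and its lowest isotonic mean was 0.0992 RPKM. Some genes therefore entered it through their hypertonic values, which adds to the shares above in both. In the other pathway list the shares were 2 of 6 (EXOSC6 behind AARS and NAT10 behind CAPRIN1) and 2 of 113 (EXOSC1 and POLR1D). Whether reads from an upstream gene add to the counts of these members was not tested.

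On the opposite strand, 16 of the 39 members (41%) had a protein-coding gene starting within 1 kb of their own start, against 16.8% of expressed protein-coding genes. The partners of NOP16, PES1, UTP4 and WDR12 start inside the member. Starts are those of the gene entries, and for PES1 that start (chr22:30607083) lies away from the promoter window given above. Of 15 such partners tested, 11 had a negative fold change, with a median of -0.29 log2, and 10 were lower in hypertonic replicate 1 than in replicate 2, with medians of -0.61 and 0.06. Of expressed protein-coding genes 77.2% were negative, with a median of -0.33, and 59.3% were lower in replicate 1. Over all tested genes these shares were 47.6% and 53.2%. PTCD3, which starts 26 bp from POLR1A, had a fold change of -0.76 log2 (SE 0.40). The partners of UTP18 (MBTD1, -0.39 log2) and BYSL (MED20, -0.33 log2) were also negative but closer to 0 than the members themselves.

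Antisense entries existed for 37 members, and 16 of them had at least 20 counts over the 4 libraries. Of these 16, 9 (56.2%) were above both isotonic libraries in both hypertonic ones, close to the 53.8% of 2563 expressed protein-coding genes with as many antisense counts. Antisense to POLR1E, 8.32 and 2.04 CPM were counted in hypertonic medium and 0.343 and 0.413 CPM in isotonic medium. Antisense to POLR1C the values were 6.76 and 3.69 against 1.5 and 2.12 CPM, and antisense to HEATR1 they were 3.25 and 1.45 against 0.27 and 0.31 CPM. Hypertonic replicate 1 was the higher for these 3 and for 6 of the 9 members in all, while BOP1 (1.94 and 3.1 CPM), BYSL (1.06 and 1.22 CPM) and NHP2 (1.94 and 1.96 CPM) had the higher value in replicate 2. For POLR1C the antisense reads made up 39.1% of the gene's reads in hypertonic replicate 1, 14% in replicate 2 and 6.43% in the isotonic libraries on average.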

How the data were processed

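Nascent RNA was measured in 4 Bru-seq libraries of U2OS cells, 2 hypertonic and 2 isotonic, grouped by their titles. Per the submitters' processing notes, the tools included STAR 2.5.3a, Bowtie2 2.3.3, bedtools 2.16.2 and CASAVA 1.8.2, and the build was GRCh38; their roles are not stated. For each gene and strand the deposited files give an estimated count, made by the authors and not always whole. They also give an RPKM value that the authors scaled by length and by a factor particular to each library. Lacking headers, the columns were identified by their values. Design lines that spoke of the per-length value were applied to that RPKM column. Strand came from GENCODE release 29. Shared entries for overlapping genes (3.11 to 3.48% of counts) and unmatched entries (0.165 to 0.209%) were left out. Which libraries were made with strand-marking actinomycin D is not recorded in the labels. Counts are of reads, without molecular identifiers.

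Estimated counts of the sense strand were rounded and tested with edgeR 4.0.16 (R 4.3.3; TMM factors of 0.947, 1.22, 0.974 and 0.887; default expression filter; quasi-likelihood test; Benjamini-Hochberg adjustment over all tested genes at 0.05). The standard error is the size of the log2 fold change divided by the square root of F. Differences of single libraries from the isotonic mean use log2 CPM with a prior count of 2. DESeq2 1.42.0, limma-voom 3.58.1, other scalings, no filter, a replicate block and leaving out each library were alternatives. The fits were also run on simulated counts. These had the same spread in both groups, unlike the libraries here, so they cannot show how the fits behave on these data. Lists received no set test. The members and lists were chosen with earlier results of these data known. Described in full by rule were, in each role, the genes with the 2 smallest p-values and the highest isotonic RPKM, and members whose hypertonic libraries lay outside the isotonic ones by 2-fold on 1 side or on both (0 met either); of the other pathway genes, the 3 with the smallest p in each direction. Other members were added after their values were seen.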

Additional observations from a re-analysis of the deposited data

How the results depend on the processing

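Whether the replicate numbers pair the libraries is not known. The deviations of same-numbered libraries from their group means correlated at 0.025 across all tested genes. With 2 libraries per group this is a single correlation, which cannot show whether they shared a culture or day. The replicate block moved the median of the members from -0.34 to -0.60 log2. With the replicate block edgeR passed 384 genes and 0 members, and 4 members were positive; UBTF was -0.13, UTP3 -0.25 and NOP56 -0.07 log2. limma-voom passed 0 genes, with 4 positive members and the same 3 turned (UBTF -0.04, UTP3 -0.18, NOP56 -0.04). DESeq2 passed 731 genes and no filter on low counts 916, with 0 members in either, and without the filter 5 members had an unadjusted p under 0.05 (9.97% of all and 13% of expressed genes). Total-count scaling moved the median of all genes to 0.26 and upper-quartile scaling to 0.23 log2, from 0.04. They left 17 and 14 members positive and 1 member each, higher, at an unadjusted p under 0.05 (10.8% and 11.9% of all genes, 3.69% and 5.2% of expressed ones). Under total-count scaling these members reversed: POLR1A 0.02, POLR1E 0.11, DDX21 0.03, WDR12 0.11, BOP1 0.31, RRS1 0.30, RRP12 0.15, NOP14 0.20, NOL6 0.21, DKC1 0.28. Under upper-quartile scaling these did: POLR1E 0.07, WDR12 0.01, BOP1 0.10, RRS1 0.10, RRP12 0.00, NOL6 0.05, DKC1 0.08. RLE scaling reversed none.

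The median of the members in hypertonic replicate 1 was -0.84 with upper-quartile scaling, -0.70 from deposited RPKM with a pseudocount of 1 and -1.31 against isotonic replicate 2 alone. In hypertonic replicate 2 it was 0.41 with total-count scaling, 0.27 from RPKM with a pseudocount of 0.1 and -0.19 against isotonic replicate 2 alone. Members below in both hypertonic libraries were 8 with total-count scaling (8.17% of all tested and 19.4% of expressed genes) and 9 from RPKM with either pseudocount (13.6% and 30.6%). The RPKM settings were chosen after seeing the data; they replaced planned settings that named the count column by mistake and were not run.

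Leaving out 1 library at a time, with the lone sample assumed to vary like the other group, gave 0 to 4918 genes past the threshold, 20 to 37 negative and 2 to 19 positive members, 0 to 27 members at an unadjusted p under 0.05, a median of -1.12 to -0.03 and 68 to 108 negative genes in the other pathway list. The upper count of genes, the lower median and the 27 members, all lower, came without hypertonic replicate 2, where 35.6% of all and 49.6% of expressed genes had such a p; the 0 came without either isotonic library (3.58% and 4.47% of all genes), and without hypertonic replicate 1 there were 11 (22.6% of all and 32.7% of expressed genes). The log2 fold changes of 18 members changed sign when a library was left out, over these ranges: BOP1 -2.36 to 0.75, DDX21 -0.96 to 0.17, DKC1 -2.05 to 0.69, FBL -1.75 to 0.29, GNL3 -1.39 to 0.09, NCL -0.60 to 0.64, NOL6 -1.12 to 0.44, NOLC1 -0.75 to 1.05, NOP14 -2.23 to 0.61, NOP56 -0.91 to 0.70, POLR1E -0.45 to 0.23, RRP12 -0.94 to 0.30, RRS1 -2.04 to 0.72, UBTF -1.75 to 1.30, UTP14A -1.68 to 0.10, UTP3 -1.63 to 0.99, UTP6 -0.93 to 0.04, WDR12 -0.73 to 0.21. A total of 20 members, UTP15, UTP18 and NOP2 among them, kept their sign in every setting. With 2 libraries per group an exact permutation test of a single gene cannot give a two-sided p below 0.333.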
